A study of Mus musculus with 12 samples.

Results

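The genes encoding the proteins of the mitochondrial ribosome were examined in Gdap1 knock-out and wild type mice. Members were all genes whose single platform symbol begins with Mrpl or Mrps followed by a digit, and 76 of the 18193 genes on the array met this rule. Each gene was read from 1 probe set, the one with the highest mean over the 12 arrays, out of 156 probe sets for the 76 genes. By the family's accepted subunit assignments, 49 members belong to the large subunit and 26 to the small subunit, while Mrps36 is now assigned to the 2-oxoglutarate dehydrogenase complex. The arrays form 4 groups of 3: laser-captured motoneurons of knockout mice, laser-captured motoneurons of wild type mice, total sciatic nerve lysate of knockout mice and total sciatic nerve lysate of wild type mice. All animals were untreated and 2 months old. The knockout affects Gdap1 throughout the body, and the submitters' design text says that RNA of 5 mice was purified and 3 samples per tissue and genotype were chosen by RNA amount and quality. The labels call the 3 arrays of a group biological replicates, and no strain or sex is given. The submitters state that the Gdap1 probe sets lie where the knockout shows no apparent loss of signal, so the array does not check the genotype.

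Mitochondria carry their own ribosome, which translates the few proteins that mitochondrial DNA encodes, all of them subunits of the respiratory chain and ATP synthase. Its ribosomal RNAs are mitochondrial, but every one of its proteins is encoded in the nucleus, made in the cytosol and imported. Members with bacterial homologues form the conserved core of the particle, and mitochondria-specific members lie mostly around it. Gdap1 encodes an outer membrane protein linked to mitochondrial fission, and mutations in the human gene cause forms of Charcot-Marie-Tooth neuropathy, a disease of the peripheral axon or its Schwann cells.

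The labelled cell types were checked on their markers. The motoneuron arrays had Slc18a3, the vesicular acetylcholine transporter, at means of 12.44 in knockout and 12.21 in wild type, against 5.38 in knockout nerve and 5.67 in wild type nerve. Chat, which makes acetylcholine and is the defining enzyme of these cells, was listed at 4.58 in knockout motoneurons and 4.83 in wild type motoneurons, no higher than the 5.17 of knockout nerve and the 5.12 of wild type nerve. Of the 10 motoneuron markers 9 were called higher in wild type motoneurons than in wild type nerve, and all 6 measured markers of the myelinating Schwann cell were called lower. The motoneuron arrays also held glial signal. Oligodendrocyte markers averaged 11.03 in knockout and 11.23 in wild type motoneurons, against 8.36 in knockout nerve and 8.28 in wild type nerve. Astrocyte markers averaged 10.84 in knockout and 11.14 in wild type motoneurons, where the motoneuron markers averaged 11.91 and 11.98. The nerve is a mixed tissue. Its skeletal muscle markers ranged over arrays from 9.79 to 11.01 in knockout and from 7.94 to 13.94 in wild type on the log2 scale. The Y-linked gene Eif2s3y read 10.95 on knockout motoneuron array 2 and 3.19 to 3.80 on the other 5 motoneuron arrays, and in nerve it was high on knockout arrays 1 and 2 and wild type arrays 1 and 3. Fewer cells of a type and less RNA per cell cannot be told apart in such samples.

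RefSeq promoters (build GRCm38.p6), each running from 250 bases before to 50 bases after a gene's start, were found for 67 of the 76 members, as 73 promoters. Motifs were counted on both strands. The ETS motif CCGGAAG, the core bound by GABPA (NRF2), stood in 34.2% of member promoters, against 13.0% of the 18009 promoters of array genes and 8.86% of all 32851 promoters. The NRF1 motif GCGCANGCG stood in 20.5% of member promoters, against 9.89% of array gene promoters and 6.25% of all promoters. The YY1 motif AAGATGGCG stood in 11.0% of member promoters, against 2.10% of array gene promoters and 1.40% of all promoters. NRF1, GABPA and YY1 are the transcription factors best known for nuclear genes of mitochondria. The E-box CACGTG (9.59% against 8.74% of array genes), the CRE TGACGTCA (2.74% against 2.50%), CCAAT (39.7% against 37.4%) and GGGCGG, the GC box (53.4% against 52.4%), were close to the shares of array genes, and TATAAA was at 6.85% against 9.76%. These are matches of letters, and binding was not measured.

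**Figure D1:**
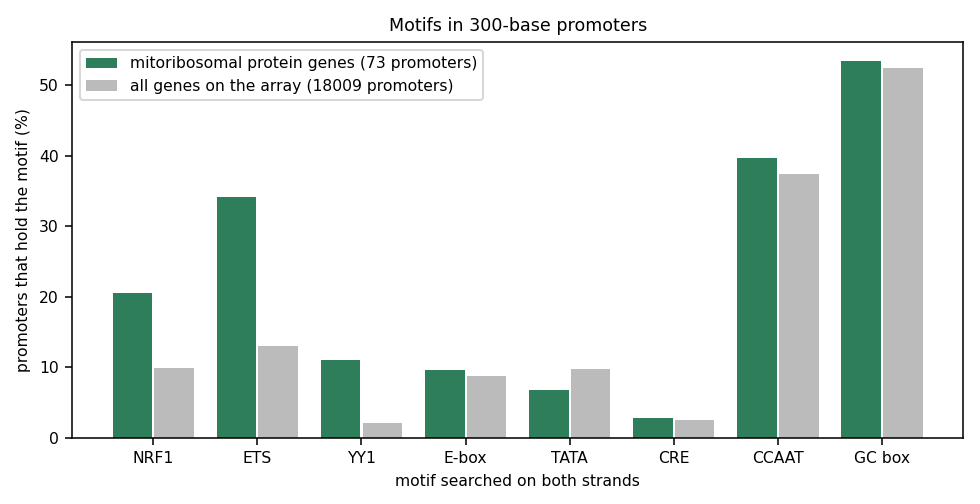
Share of promoters, in percent, that hold each of 8 motifs on either strand, for 73 promoters of mitoribosomal protein genes (green) and 18009 promoters of array genes (grey). The ETS, NRF1 and YY1 bars of the mitoribosomal genes stand above those of the array genes (34.2% against 13.0% for ETS), and the other 5 pairs lie near each other.

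The promoters of the 3 members with the smallest p-values in the motoneuron comparison and of Mrpl44, the member with the most negative difference there, are printed as examples. They run 5′ to 3′ on the strand of the gene, and capitals mark matches of the ETS motif (in Mrpl52 and at the end of Mrps18b) and of the NRF1 motif (in Mrpl12, Mrpl44 and near the beginning of Mrps18b), on either strand.
Mrpl52, chr14:54426659-54426958, plus strand: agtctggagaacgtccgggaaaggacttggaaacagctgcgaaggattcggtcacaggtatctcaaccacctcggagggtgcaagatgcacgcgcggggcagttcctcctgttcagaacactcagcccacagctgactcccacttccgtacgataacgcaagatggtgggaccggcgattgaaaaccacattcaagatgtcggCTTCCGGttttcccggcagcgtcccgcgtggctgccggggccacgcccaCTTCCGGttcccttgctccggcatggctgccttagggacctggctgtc
Mrps18b, chr17:35916391-35916690, minus strand: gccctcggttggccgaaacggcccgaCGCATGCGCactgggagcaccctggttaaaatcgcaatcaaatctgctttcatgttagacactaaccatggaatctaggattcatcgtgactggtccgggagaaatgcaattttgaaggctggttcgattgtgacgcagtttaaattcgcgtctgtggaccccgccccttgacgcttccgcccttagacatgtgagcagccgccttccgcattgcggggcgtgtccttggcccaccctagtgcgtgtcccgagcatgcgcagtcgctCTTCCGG
Mrpl12, chr11:120484387-120484686, plus strand: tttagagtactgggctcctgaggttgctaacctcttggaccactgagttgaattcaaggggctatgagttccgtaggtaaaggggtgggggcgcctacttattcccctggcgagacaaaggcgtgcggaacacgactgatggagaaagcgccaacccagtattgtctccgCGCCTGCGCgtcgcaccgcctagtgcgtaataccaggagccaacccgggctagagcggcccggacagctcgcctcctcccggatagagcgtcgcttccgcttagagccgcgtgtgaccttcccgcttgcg
Mrpl44, chr1:79775768-79776067, plus strand: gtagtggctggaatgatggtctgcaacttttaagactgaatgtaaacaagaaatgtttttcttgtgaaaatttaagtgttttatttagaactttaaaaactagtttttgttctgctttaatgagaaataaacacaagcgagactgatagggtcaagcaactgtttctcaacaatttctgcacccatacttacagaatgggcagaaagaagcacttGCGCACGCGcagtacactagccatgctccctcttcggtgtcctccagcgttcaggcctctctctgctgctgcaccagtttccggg
Mrpl52 holds a pair of ETS matches, and Mrps18b holds an ETS and an NRF1 match. Members with an ETS match and those without had median differences between knockout and wild type motoneurons of 0.17 (25 members) and 0.10 (42 members). With and without an NRF1 match the medians were 0.17 (15 members) and 0.14 (52 members). With and without a YY1 match they were 0.20 (8 members, Mrpl35, Mrpl36, Mrpl37, Mrpl42, Mrps11, Mrps18a, Mrps24 and Mrps27) and 0.13 (59 members). These medians were not tested.

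In motoneurons, most mitoribosomal protein genes had slightly higher values in knockout than in wild type mice, but no member passed the test. The difference was above 0 for 60 of 76 members, against 52.7% of all genes, and the median difference was 0.16 on the log2 scale, against 0.02 over all genes. In the limma fit with p-values adjusted by Benjamini-Hochberg across the 45037 probe sets tested, 0 members were called at an adjusted p under 0.05, as were 0% of all genes. At an unadjusted p under 0.05, 29 members were higher and 1 was lower, against 9.94% and 10.9% of all genes, or 13.4% and 15.2% of the genes brighter than the median probe set. The 3 knockout arrays lay wholly above the 3 wild type arrays for 39 members and wholly below them for 2, Mrpl44 and Mrpl50, against 13.9% and 11.9% of all genes. Differences ran from -0.48 for Mrpl44 to 0.40 for Mrpl45, which anchors the ribosome at the inner membrane.

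The large subunit, which joins amino acids and releases the chain through its exit tunnel, had 38 of 49 members above 0 and a median of 0.15. Mrpl52, a mitochondria-specific protein, read 13.83, 13.89 and 13.90 in knockout motoneurons, against 13.69, 13.56 and 13.58 in wild type motoneurons. Its difference was 0.26 ± 0.05 (SE; unadjusted p = 0.000849, adjusted p = 0.108, limma). All 3 knockout arrays were above all wild type arrays, by a margin wider than the spread within either group. The gene has 3 further probe sets, which gave 0.59, 0.58 and -0.05.

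Mrpl12, the stalk protein of the large subunit, which in human cells also binds the mitochondrial RNA polymerase, read 14.02, 13.99 and 14.02 in knockout motoneurons. Its wild type values were 13.81, 13.83 and 13.83, and the difference was 0.18 ± 0.04 (adjusted p = 0.114, limma). The groups were tight and apart, with SDs of 0.02 in knockout and 0.01 in wild type (n = 3 each). The other stalk proteins did not share this separation: Mrpl11, the homologue of bacterial L11, differed by 0.10 (adjusted p = 0.473) and Mrpl10, the base of the stalk, by -0.02 (adjusted p = 0.954).

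Among other large subunit proteins, Mrpl48 and Mrpl43, both mitochondria-specific, and Mrpl22, which lines the exit tunnel, had no overlap between genotypes. Mrpl48 read 12.95, 13.00 and 12.99 in knockout motoneurons, against 12.75, 12.73 and 12.79 in wild type motoneurons (difference 0.23, adjusted p = 0.130). Its other probe sets gave -0.09 and 0.14, and averaging all 3 gave 0.09. Mrpl22 read 13.05, 13.01 and 13.08 in knockout motoneurons, against 12.82, 12.85 and 12.82 in wild type motoneurons (difference 0.21, adjusted p = 0.133). Mrpl43 read 12.87, 12.84 and 12.87 in knockout motoneurons, against 12.49, 12.53 and 12.69 in wild type motoneurons (difference 0.28, adjusted p = 0.134). On these probe sets, every knockout array was above every wild type array.

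The small subunit, which binds the mRNA and reads the codon, had 21 of 26 members above 0, with a median of 0.16, and 17 members without overlap, all higher in knockout, against 13.9% of all genes higher and 11.9% lower without overlap. Mrps18b is 1 of 3 mammalian copies of bacterial S18, and it read 12.77, 12.68 and 12.79 in knockout motoneurons against 12.38, 12.37 and 12.48 in wild type motoneurons (difference 0.34 ± 0.07, adjusted p = 0.113). The other copies had smaller differences, 0.16 for Mrps18a (adjusted p = 0.257), which sits in the large subunit, and 0.08 for Mrps18c (adjusted p = 0.618). Mrps24, the homologue of bacterial S3 near the mRNA entry, read 12.65, 12.63 and 12.74 in knockout motoneurons and 12.33, 12.30 and 12.46 in wild type motoneurons (difference 0.31, adjusted p = 0.124). Mrps11, the homologue of bacterial S11 on the platform, read 11.91, 11.99 and 11.87 in knockout motoneurons and 11.59, 11.53 and 11.65 in wild type motoneurons (difference 0.33, adjusted p = 0.133). Genotypes did not overlap for any of these 3. Mrps12, which sits in the decoding centre, differed by 0.10 (adjusted p = 0.410).

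The members with lower values were fewer, and in most of those named the wild type values were highest on arrays 1 and 2. Mrpl44, a large subunit protein with an RNase III-like fold whose human mutations cause cardiomyopathy, read 12.58, 12.67 and 12.59 in knockout motoneurons. Its wild type values were 13.17, 13.28 and 12.82, and the difference was -0.48 ± 0.11 (adjusted p = 0.130, limma). Genotypes did not overlap, but wild type array 3 lay nearer to the knockout arrays than to the other wild type arrays. Its 3 other probe sets gave 0.03, -0.26 and -0.25, the first with no such difference.

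The same placing of wild type array 3 was seen in Mrps9, the homologue of bacterial S9, which read 10.75, 10.85 and 10.64 in knockout motoneurons against 11.12, 11.48 and 10.73 in wild type motoneurons (difference -0.37, adjusted p = 0.369). All 4 Mrps9 probe sets gave negative differences, from -0.37 to -0.17. Mrpl20, needed early in assembly of the bacterial large subunit, read 12.39, 12.28 and 12.47 in knockout motoneurons and 12.89, 12.89 and 12.27 in wild type motoneurons (difference -0.30, adjusted p = 0.403). Mrpl32, a substrate of the m-AAA protease, read 12.35, 12.24 and 12.36 in knockout motoneurons and 12.63, 12.76 and 12.20 in wild type motoneurons (difference -0.22, adjusted p = 0.472). In Mrpl20 and Mrpl32, wild type array 3 was the lowest of all 6 motoneuron arrays. Mrpl50, mitochondria-specific, was the exception: it read 10.21, 9.76 and 10.22 in knockout motoneurons against 10.32, 10.39 and 10.35 in wild type motoneurons (difference -0.29, adjusted p = 0.392), so the odd value lay in knockout array 2, and without that array the difference was -0.14. Mrpl42, Mrpl3 and Mrps33 had differences of -0.12, -0.18 and -0.11, with adjusted p of 0.409, 0.497 and 0.585.

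**Figure D2:**
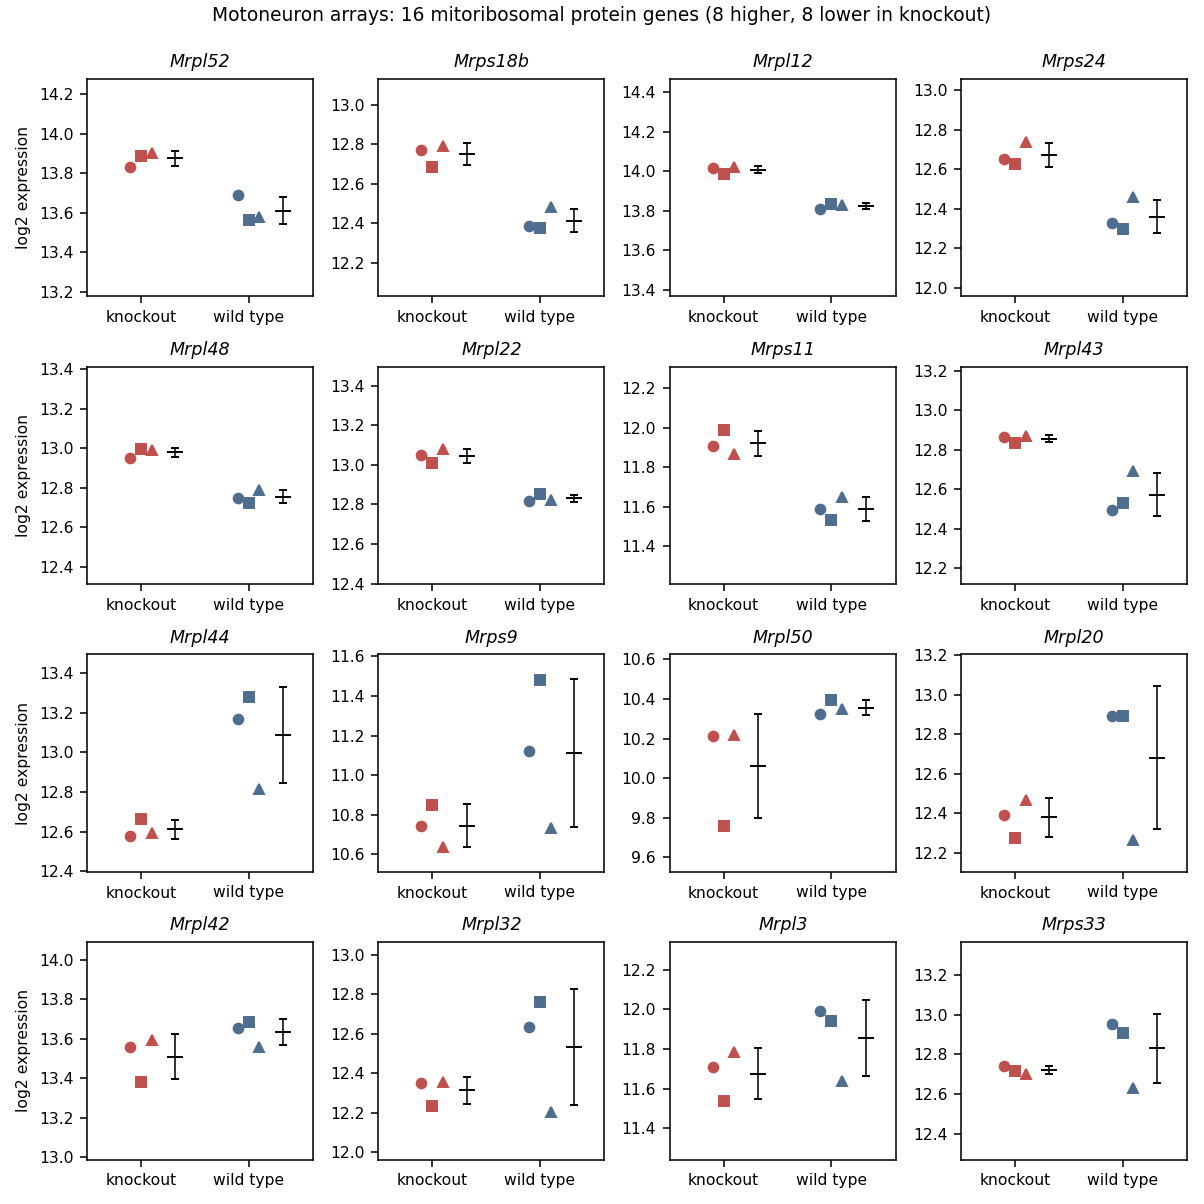
Log2 expression of 16 members on each motoneuron array, knockout left and wild type right. Circles, squares and triangles are replicates 1, 2 and 3, bars are mean ± SD (n = 3), and each panel spans the same log2 range. The first 8 genes separate by genotype, while in Mrpl44, Mrps9, Mrpl20 and Mrpl32 the wild type triangle falls at or near the knockout values (12.82 for Mrpl44).

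That array decided the count of calls. Without wild type motoneuron array 3, 25 members were called, 19 higher and 6 lower in knockout, among 4.68% of probe sets called higher and 5.64% called lower. The 6 called lower were Mrpl44 (-0.61, adjusted p = 0.00489), Mrpl20 (-0.51, 0.00882), Mrpl32 (-0.38, 0.0195), Mrps10 (-0.30, 0.0369), Mrps9 (-0.56, 0.0444) and Mrps33 (-0.21, 0.0470). Led by Mrpl43 (0.34, adjusted p = 0.0109), Mrps18b (0.37, 0.0127) and Mrps24 (0.36, 0.0152), the 19 called higher also included Mrpl12, Mrpl52, Mrpl48, Mrps11 and Mrpl22. With arrays weighted by quality, 16 members were called higher and 1 lower, among 2.70% and 3.80% of probe sets. These shares are over all 45037 probe sets, dim ones included, while each member was read from its brightest probe set. Shares over genes were not counted in these fits and can be higher. With all arrays in the main fit, 17% of probe sets and 20.8% of genes reached an unadjusted p under 0.05 (limma). Without wild type array 3, 45 members lay wholly above and 13 wholly below, against 23.2% and 22.9% of all genes. Over all probe sets that array correlated at 0.987 with its own group on average and at 0.989 with the knockout arrays. For the members' mean level it did not stand apart, at 12.15 against 12.19 and 12.18 on the other wild type arrays.

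**Figure D3:**
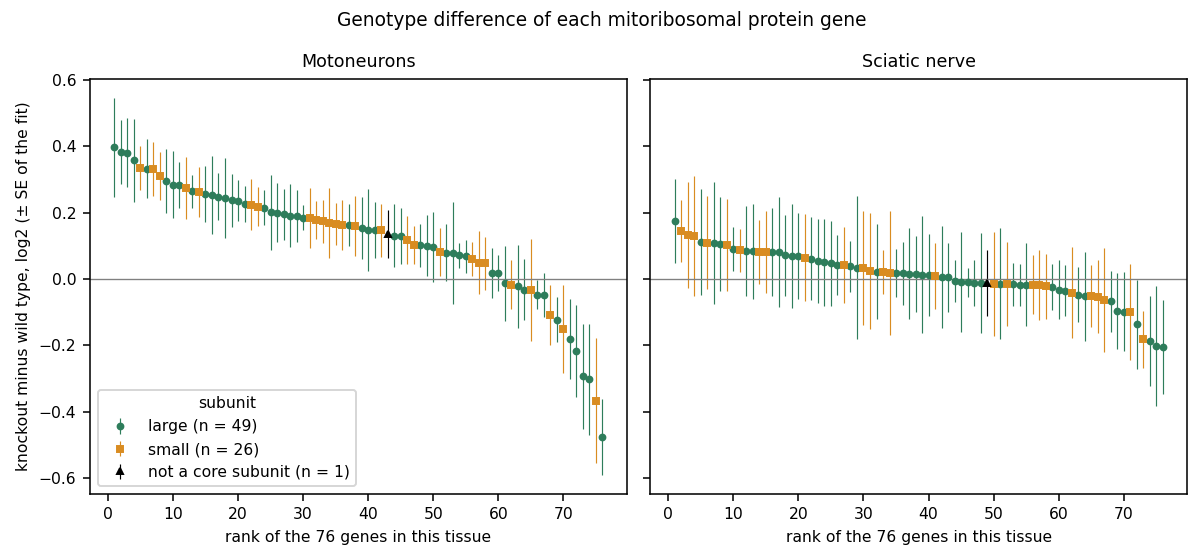
Knockout minus wild type difference of each of the 76 members (log2, ± SE of the fit), ranked within motoneurons (left) and sciatic nerve (right), with the large subunit as green circles, the small subunit as orange squares and Mrps36 as a black triangle. In motoneurons 60 of 76 points lie above 0, with both subunits spread along the ranks; in nerve all points lie between -0.20 and 0.17.

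The mean of the 76 members on each motoneuron array was 12.29, 12.27 and 12.31 in knockout and 12.19, 12.18 and 12.15 in wild type. Complex I subunits and cytosolic ribosomal proteins showed less separation. Some lists of translation partners, given below, had medians close to that of the members. Complex I subunit genes, whose mitochondrially encoded partners this ribosome makes, averaged 13.38, 13.32 and 13.41 in knockout motoneurons against 13.35, 13.33 and 13.32 in wild type motoneurons. Their groups overlapped, 25 of 35 were above 0, and the median difference was 0.05. Cytosolic ribosomal protein genes averaged 12.34 to 12.37 in knockout and 12.35 to 12.36 in wild type, with 27 of 49 above 0 and a median of 0.02. These are descriptions of lists, and the difference between the families was not tested.

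Other measures were also compared between genotypes in motoneurons. The spiked bioB control and the endothelial markers did not overlap between genotypes, and the other measures given here overlapped. The 18S ribosomal RNA probe sets read 10.72 to 10.98 in knockout and 10.37, 10.44 and 10.86 in wild type, and the spiked bioB control read 10.68 to 10.75 in knockout and 11.06 to 11.27 in wild type. In nerve bioB also separated the genotypes, at 10.62 to 10.73 in knockout and 11.45 to 11.72 in wild type. The 3′ to 5′ difference of beta-actin, a sign of RNA integrity, was 1.53 and 1.67 on knockout arrays 1 and 2 and lower on knockout array 3, against 1.62 to 1.97 in wild type. With that difference as a covariate the median of the members was 0.13 and 15 were higher at an unadjusted p under 0.05. The 8 astrocyte markers averaged 10.63 to 10.95 in knockout and 10.92 to 11.26 in wild type, with 4 lower and 0 higher at an unadjusted p under 0.05. The 6 endothelial markers averaged 5.83 to 6.15 in knockout and 6.24 to 6.40 in wild type. The 10 motoneuron markers averaged 11.80 to 12.06 in knockout and 11.89 to 12.10 in wild type. The part of these measures in the members' difference was not tested.

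Of the partners of mitochondrial translation, taken from fixed lists, 0 were called. The 4 measured mitoribosome proteins under names other than Mrpl and Mrps (Dap3, Ptcd3, Chchd1 and Gadd45gip1) were all above 0, 2 of them at an unadjusted p under 0.05. Of all genes, 52.7% were above 0 and 9.94% were higher at that p. Gadd45gip1, a large subunit protein, read 11.14, 11.05 and 11.19 in knockout motoneurons against 10.67, 10.50 and 10.72 in wild type motoneurons (difference 0.50, adjusted p = 0.120). Ptcd3, a small subunit protein, differed by 0.19 (adjusted p = 0.260). Translation factors were above 0 for 10 of 13, against 52.7% of all genes, with a median of 0.17. Their mean was 10.80 to 10.93 on knockout and 10.75 to 10.86 on wild type motoneuron arrays, so the groups overlapped. Oxa1l, the inner membrane insertase that receives the new chains, differed by 0.32 (adjusted p = 0.180). Slirp and Lrpprc, which together stabilise mitochondrial mRNAs, differed by 0.18 and 0.24 (adjusted p = 0.198 and 0.216).

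Mitochondrial aminoacyl-tRNA synthetases, which charge the tRNAs, were above 0 for 14 of 21, against 52.7% of all genes, with a median of 0.18. Their mean was 9.83 to 9.94 on knockout and 9.78 to 9.80 on wild type motoneuron arrays, without overlap, as for the members' mean. The synthetases held genes of both directions: Cars2 differed by 0.79 and Tars2 by 0.53. Nars2 read 8.87, 8.72 and 8.55 in knockout motoneurons against 9.41, 9.69 and 9.32 in wild type motoneurons (difference -0.76, adjusted p = 0.124). Assembly and rRNA modification factors were above 0 for 18 of 27, against 52.7% of all genes, with a median of 0.06. The mean of this list was 10.395 in knockout and 10.392 in wild type motoneurons, and the arrays overlapped. Ddx28, a helicase of large subunit assembly, read 11.29, 11.29 and 11.34 in knockout motoneurons against 10.79, 10.64 and 10.59 in wild type motoneurons (difference 0.63, adjusted p = 0.103). Gtpbp10, a GTPase of the same pathway, read 8.41, 8.51 and 7.35 in knockout motoneurons against 9.57, 9.80 and 9.04 in wild type motoneurons (difference -1.38, adjusted p = 0.135). Neither gene overlapped between genotypes, and their differences had opposite signs.

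In sciatic nerve, differences between genotypes were small and no mitoribosomal protein gene passed the test. With limma, 0 members were called, as were 0% of all genes, and 0 members reached an unadjusted p under 0.05, against 2.04% of all genes. The difference was above 0 for 43 of 76 members, against 49.4% of all genes, and the median was 0.01. Differences ran from -0.20 for Mrpl50 to 0.17 for Mrpl10. Groups did not overlap for 2 members that were higher (Mrpl43 and Mrps12) and 1 that was lower (Mrps24) in knockout, against 2.81% and 4.09% of all genes.

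Mrpl43 read 12.96, 13.01 and 12.96 in knockout nerve against 12.84, 12.91 and 12.91 in wild type nerve (difference 0.09 ± 0.07). Mrps12 read 13.02, 13.09 and 13.05 in knockout nerve against 12.93, 12.97 and 12.99 in wild type nerve (difference 0.09 ± 0.06). Mrps24 read 12.94, 12.96 and 12.93 in knockout nerve against 13.15, 13.25 and 12.97 in wild type nerve (difference -0.18 ± 0.09, unadjusted p = 0.0695). None of these differences was called. Other members with the smallest p-values were Mrps23, Mrpl10, Mrps17, Mrps11, Mrps18b and Mrpl57 on the higher side (0.08 to 0.17) and Mrpl50, Mrpl32, Mrpl1, Mrpl39, Mrpl44, Mrpl3 and Mrpl47 on the lower side (-0.20 to -0.07). Among them Mrpl1 forms the mobile stalk by the tRNA exit site, Mrps17 is the homologue of bacterial S17, and Mrpl47 corresponds to bacterial L29 at the tunnel exit.

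The nerve arrays differed more within a genotype than between genotypes. Knockout nerve array 2 was the highest of the 6 nerve arrays for 49 members, and wild type nerve array 3 was the lowest for 36. The members' mean was 12.21, 12.44 and 12.18 in knockout nerve and 12.33, 12.34 and 12.13 in wild type nerve. The median SD of a member within its group was 0.14 in both nerve genotypes, against 0.06 in knockout motoneurons and 0.09 in wild type motoneurons. The direction of the count followed these arrays: without knockout nerve array 2, 10 members were above 0, and without wild type nerve array 3, 19. The skeletal muscle markers, which varied most among the marker lists, averaged 11.01, 9.79 and 10.62 in knockout nerve and 13.94, 7.94 and 12.79 in wild type nerve. The microglia and macrophage markers averaged 12.64, 12.89 and 12.48 in knockout nerve and 12.53, 12.98 and 12.38 in wild type nerve. Knockout array 2 and wild type array 2, which had the highest member means, had the lowest muscle values and the highest macrophage values. Wild type array 3 was lowest for both the members and the macrophage markers. Wild type array 1 went the other way, with the highest muscle value and a member mean close to that of wild type array 2. The endothelial markers averaged 11.42, 11.57 and 11.24 in knockout nerve and 11.53, 11.43 and 11.28 in wild type nerve. The part of these markers in the members' spread was not tested.

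**Figure D4:**
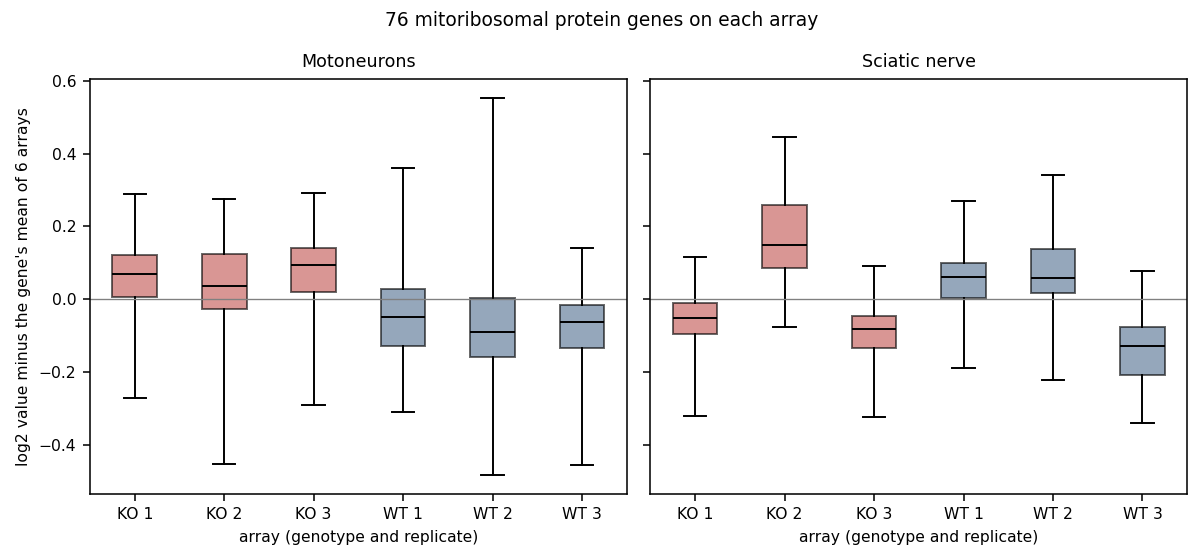
Distribution over the 76 members of the log2 value minus that gene's mean of the 6 arrays of its tissue, knockout arrays left and wild type arrays right. Boxes span the quartiles, the line is the median and whiskers reach the lowest and highest member. In motoneurons the knockout medians lie at 0.04 to 0.09 and the wild type medians at -0.09 to -0.05; in nerve knockout array 2 stands at 0.15 and wild type array 3 at -0.13.

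Whether the genotype difference itself differed between the tissues was tested by an interaction term over all 12 arrays. With limma, 0 members were called, as were 0% of all genes. At an unadjusted p under 0.05, 4 members were higher and 1 was lower in motoneurons relative to nerve, against 4.16% and 4.91% of all genes. The estimate was above 0 for 60 of 76 members, against 52.2% of all genes, with a median of 0.12. These values moved with single arrays. The members higher at that unadjusted p numbered 15 without knockout nerve array 2, 17 without wild type nerve array 3 and 9 without wild type motoneuron array 3. In either direction the members at that p numbered 15, 17 and 12 in these fits, against 5 with all arrays. The probe sets at that p in either direction numbered 3470, 3607 and 6311 of 45037, against 3398 with all arrays. The median ran from 0.07 without knockout nerve array 3 to 0.21 without knockout nerve array 2, and 0 members were called without any 1 array. Mrps24 had the smallest p, at 0.49 ± 0.11 (unadjusted p = 0.000815, adjusted p = 0.528). Its genotype difference was 0.31 in motoneurons and -0.18 in nerve. Next came Mrpl52 (0.27, adjusted p = 0.534), Mrpl48 (0.24, 0.605), Mrps21 (0.27, 0.648), a homologue of bacterial S21, and Mrpl44 (-0.38, 0.658). Mrpl43 followed (0.19, adjusted p = 0.674).

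Members fixed for their roles in human disease followed no common direction in motoneurons. Mrps22 differed by 0.18 (adjusted p = 0.198), Mrps34 by 0.22 (0.216), Mrps16 by 0.16 (0.331), Mrpl3 by -0.18 (0.497) and Mrpl44 by -0.48 (0.130). Chromosome 1, which carries Gdap1 itself, holds 4 members, and Mrpl15 (0.25, adjusted p = 0.157) and Mrps14 (0.05, 0.844) were above 0 while Mrpl44 and Mrps9 (-0.37, 0.369) were below. In nerve all 4 had values between -0.10 and -0.02. Mrps30, named for the small subunit but found in the large, differed by -0.03 in motoneurons (adjusted p = 0.897). Mrps36, the member outside the ribosome, differed by 0.14 (adjusted p = 0.384).

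Between tissues the members differed far more than between genotypes. In wild type mice, 20 members were called higher and 31 lower in motoneurons than in nerve, against 17.7% and 63.7% of all genes. In knockout mice, on other arrays, 28 were called higher and 31 lower, against 18.9% and 64.1%. The median difference was -0.14 in wild type and -0.09 in knockout, against -0.90 and -0.86 over all genes. The scale of the tissues was not common: the array medians differed by -1.77, motoneurons minus nerve, while the 95th percentiles differed by -0.54, so the counts in each direction depend on the scaling. After joint quantile normalization 51 members were called higher and 7 lower in wild type (43.1% and 30.6% of all genes), and 58 and 5 in knockout (44.5% and 31.8%). After centring on array medians 74 were called higher and 0 lower in wild type (61.2% and 20.0%), and 75 and 0 in knockout (63.1% and 20.5%). Motoneuron and nerve RNA were also extracted with different kits, which cannot be told apart from tissue.

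Within this difference some members were higher in motoneurons under all 3 scalings. Both other scalings raised the members' median difference, so they do not test the direction of a member that was higher as deposited. Mrpl46, mitochondria-specific, had the most positive difference, reading 12.78, 12.63 and 12.49 in wild type motoneurons against 11.21, 11.31 and 10.82 in wild type nerve (1.52 ± 0.15, adjusted p = 3.51e-05). Mrps27, a small subunit protein with pentatricopeptide repeats, followed at 1.26 (adjusted p = 5.61e-05), and Mrps22, whose human mutations cause mitochondrial disease, at 1.11 (adjusted p = 7.98e-05). In knockout mice the same genes differed by 1.71, 1.40 and 1.35. Groups did not overlap for any of them. Mrpl38 (0.94), Mrpl44 (0.81), Mrps10 (0.76), Mrpl4 (0.65), which reaches into the exit tunnel, and Mrps2 (0.60) were also called higher in wild type motoneurons, although other probe sets of Mrpl38 and Mrps10 gave the opposite sign.

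At the other end stood Mrpl33, a homologue of a small bacterial zinc-binding protein, which read 11.21, 11.38 and 11.04 in wild type motoneurons against 13.00, 12.99 and 12.88 in wild type nerve (-1.75 ± 0.12, adjusted p = 3.17e-06). Mrpl23, at the tunnel exit, read 11.80, 11.85 and 11.75 in wild type motoneurons against 13.48, 13.42 and 13.32 in wild type nerve (-1.61, adjusted p = 9.27e-07). Mrpl24 (-1.22), Mrpl52 (-1.17), Mrps6 (-0.91), Mrpl58 (-0.85), a peptidyl-tRNA hydrolase that frees stalled ribosomes, Mrps28 (-0.83) and Mrps18c (-0.78) were also called lower in wild type motoneurons. Centring on array medians turned all 8 of these to positive values, from 0.01 for Mrpl33 to 0.98 for Mrps18c. Centring adds about the same amount to every gene, so it shifts the members together. As deposited, the other Mrpl58 probe set was called in the opposite direction, at 1.75 (adjusted p = 0.000214, limma).

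The 3 copies of S18 lay apart between tissues, at 0.50 for Mrps18a (adjusted p = 0.0034), 0.10 for Mrps18b (0.373) and -0.78 for Mrps18c (7.05e-05) in wild type. The stalk proteins did so too, at 0.50 for Mrpl12 (adjusted p = 0.00349), 0.19 for Mrpl10 (0.252) and -0.39 for Mrpl11 (0.00125). A common shift would move all 3 of a list by the same amount. The offset between tissues was not common, at -1.77 for the medians and -0.54 for the 95th percentiles. The spacing within each list can therefore depend on the scaling. The tissue difference was alike in the genotypes, which share no arrays here: 20 members were called higher in both, 26 lower in both and 0 in opposite directions, against 16.3%, 60.1% and 0.0055% of all genes. Pearson's r was 0.966 over the 76 members and 0.983 over the 18193 genes. These are descriptions across genes, which are read from the same probe sets in both and are not independent replicates.

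Beside the members, cytosolic ribosomal protein genes were called lower in wild type motoneurons for 48 of 49, with a median of -1.02, and complex I subunits were called higher for 10 and lower for 10 of 35, with a median of 0.08. After joint quantile normalization the medians were 0.56 for the members, 0.51 for complex I and -0.47 for cytosolic ribosomal proteins, and after centring 1.62, 1.84 and 0.74. Among partners in wild type, Gfm1 and Tufm, the elongation factors of mitochondria, differed by 1.16 and 1.07, Lrpprc by 1.40, and Gars, shared by cytosol and mitochondria and mutated in a human Charcot-Marie-Tooth disease, by 1.22, all called higher in motoneurons. Wars2 (-1.93), Gatc (-1.63), Rcc1l (-1.96), Mtg1 (-1.41) and Mettl17 (-1.23) were called lower, the last 3 being assembly factors. Chchd1, a small subunit protein, was also called lower (-1.17), and Ptcd3 was called higher (0.61).

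**Figure D5:**
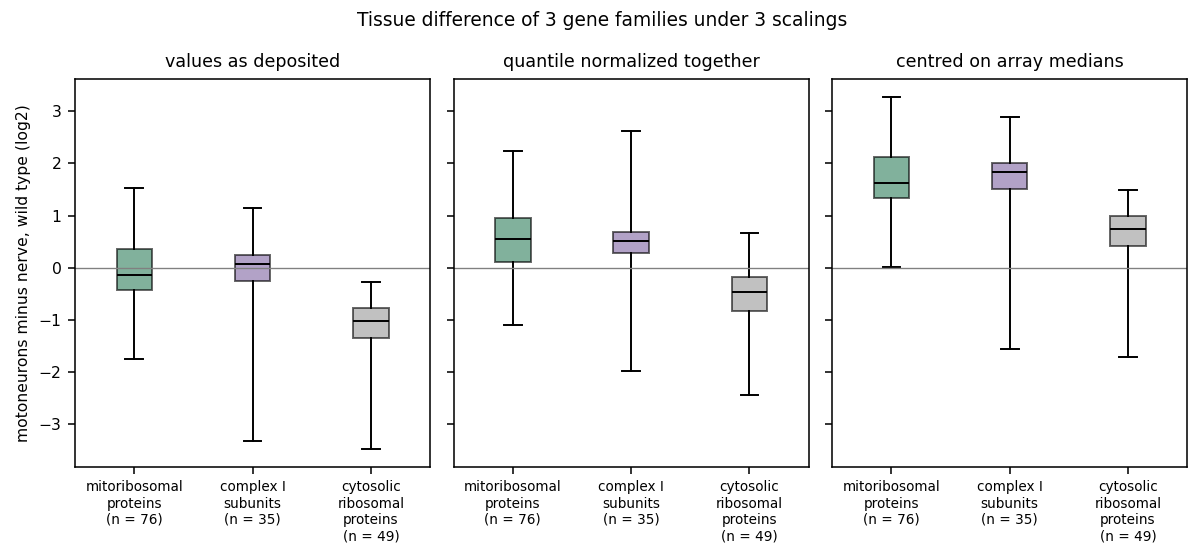
Difference between wild type motoneurons and wild type nerve (log2) for 76 mitoribosomal protein genes, 35 complex I subunit genes and 49 cytosolic ribosomal protein genes, with values as deposited, after joint quantile normalization and after centring on array medians. Boxes span the quartiles, lines are medians and whiskers reach the lowest and highest gene. The cytosolic family lies lowest in every panel (medians -1.02, -0.47 and 0.74), and the mitoribosomal median moves from -0.14 to 0.56 and 1.62 with the scaling.

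Probe sets of 1 gene did not always agree. Of the 42 members with several, the mean difference of the other probe sets had the sign of the chosen one in 26 for motoneuron genotype, 18 for nerve genotype and 25 for the wild type tissue difference. In motoneurons Mrpl57, a large subunit protein, gave 0.29 from 1 probe set and -0.55 from the other, both at an unadjusted p under 0.05. Between wild type tissues 10 members had probe sets of opposite sign, both at an unadjusted p under 0.05: Mrpl15, Mrpl19, Mrpl28, Mrpl35, Mrpl38, Mrpl42, Mrpl47, Mrpl58, Mrps5 and Mrps10. Between knockout tissues the number was 13. With all probe sets of a member averaged in place of the brightest one, the motoneuron genotype median was 0.12 and 19 members were higher at an unadjusted p under 0.05.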

How the data were processed

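Biotin-labelled cDNA amplified from 20 ng of total RNA was hybridised to 12 Affymetrix arrays, per the labels' protocols. The deposited values are on a log2 scale and were made by the authors with Affymetrix Expression Console 1.1, per the submitters' processing notes; the summarization and background method is not given in the sources used here. Array medians differed by -1.77 between motoneurons and nerve, so genotypes were compared within tissue. From the 45101 probe sets 64 controls were left out, leaving 45037, of which 34945 carry 1 symbol, 932 several and 9160 none in the platform annotation. Each comparison was fitted on the 6 arrays of its 2 groups, and the interaction on all 12, with limma 3.58.1 in R 4.3.3 (lmFit, eBayes with a mean trend, two-sided, Benjamini-Hochberg over all tested probe sets, threshold 0.05), checked on simulated data. The changes planted in the simulation were all larger than any member's genotype difference in the main fits. The simulation therefore does not show how often differences of that size would be called. Errors are standard errors of the fit unless named SD, and the 3 arrays per group limit the precision. No probe set was removed for low values, and all 76 members were tested. Named genes are the 8 higher and 8 lower members with the smallest p per genotype comparison, the 8 most positive and 8 most negative in the wild type tissue difference, the 6 smallest p in the interaction, members fixed for their roles, the 3 partners per list with the smallest p, and members whose probe sets disagree; others were named after their values were seen. Members, gene lists and tests were chosen with earlier results of these data known. Alternatives were array centring, joint quantile normalization, a filter on dim probe sets, no mean trend, array weights, all arrays in 1 fit, a replicate block, covariates, other probe set rules and leaving out each array. Deviations of same-numbered arrays correlated from -0.08 to 0.09 in motoneurons and from 0.03 to 0.31 in nerve. With the replicate block, 1758 of 45037 probe sets in nerve had an unadjusted p under 0.05, against 1040 without it. The labels do not say that the numbers pair samples, so the main fits used no pairing. Promoter sequences are RefSeq's.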

Additional observations from a re-analysis of the deposited data

Results flagged for a closer look

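Mrps24, the small subunit protein near the mRNA entry, was lower in knockout than wild type nerve on every array and higher in knockout than wild type motoneurons on every array. The genotype difference in motoneurons minus that in nerve was 0.49 on the log2 scale. The interaction test did not call it (adjusted p = 0.528, limma). The gene was picked for this separation. Of all genes, 13.9% were wholly higher in knockout motoneurons and 4.09% wholly lower in knockout nerve, and the share with both was not counted. Both of its probe sets showed these signs, at 0.31 and 0.26 in motoneurons and -0.18 and -0.07 in nerve. The second probe set had an unadjusted p of 0.673 in nerve (limma).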

How the results depend on the processing

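With 3 arrays per group, adjusted p-values for a motoneuron genotype difference depended on 1 array. Members called between knockout and wild type motoneurons numbered 17 with array weights (16 higher, 1 lower) and 1 with all 12 arrays in 1 fit (1 higher), and over fits that left out 1 array they ranged from 0 to 25 (higher 0 to 19, lower 0 to 6, the upper ends without wild type array 3). Members higher at an unadjusted p under 0.05 numbered 10 without a mean trend, 19 with all arrays in 1 fit, 15 with the beta-actin covariate and 19 with all probe sets of a gene averaged, and 19 to 31 without 1 array. Members lower numbered 2 with centring, 5 with array weights, 2 with all arrays in 1 fit, 4 with the Gapdh covariate and 0 with probe sets averaged, and 1 to 8 without 1 array. Their median was 0.13 with the beta-actin covariate and 0.12 with probe sets averaged. The replicate block, which treats same-numbered arrays as paired, gave 2 members lower at an unadjusted p under 0.05 and called 0 members in motoneurons. For the interaction, members higher at an unadjusted p under 0.05 numbered 10 with array weights, 1 without a mean trend and 3 to 17 without 1 array. In nerve the members above 0 numbered 27 with centring and 10 to 56 without 1 array.

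For the wild type tissue difference, the beta-actin covariate, which differs wholly between tissues, left 8 calls (0 higher, 8 lower), and 2 in knockout (1 higher, 1 lower, median 0.65). Centring gave 74 higher and 0 lower in wild type (median 1.62) and 75 and 0 in knockout (1.68). Joint quantile normalization gave 51 and 7 in wild type (0.56) and 58 and 5 in knockout (0.58), and averaging probe sets a wild type median of -0.28. Signs turned for single genes. In nerve genotype they were Mrps17 (-0.00305, up to 0.13 without another array), Mrps11 (-0.00318, up to 0.21) and Mrps18b (-0.0146, up to 0.24) without knockout array 2, Mrpl57 (-0.0131, up to 0.18) without wild type array 3, and Mrpl3 (0.00585, down to -0.15) without wild type array 2. Averaging probe sets turned Mrpl44 (0.012), Mrpl3 (0.00786) and Mrpl47 (0.0439) there. In the wild type tissue difference averaging probe sets turned Mrpl38 (-0.36), Mrps10 (-0.43) and Mrpl58 (0.45), and centring turned Mrpl33 (0.0127), Mrpl23 (0.15), Mrpl24 (0.54), Mrpl52 (0.59), Mrps6 (0.85), Mrpl58 (0.91), Mrps28 (0.93) and Mrps18c (0.98). Fits that leave out an array use fewer arrays, and averaging brings in other probe sets; beyond that the cause was not tested.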
